A study of Mus musculus with 80 samples.

Results

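The breakdown of the branched-chain amino acids leucine, isoleucine and valine was followed through 10 genes, Bckdha, Bckdhb, Dbt, Bckdk, Ppm1k, Bcat2, Ivd, Mccc1, Mccc2 and Hibch. They were taken by symbol from the gene count tables of 2 mouse liver exposures, which together list 19995 gene symbols, and each of the 10 had a row in both tables. All livers came from male B6C3F1 mice described as 4 weeks old. Di(2-ethylhexyl) phthalate (DEHP), a plasticiser, was given in the feed for 7 days at 0, 1500, 3000 or 6000 ppm, with 4 mice per dose, and those livers were collected in 2013. The other exposure was to dichloroacetic acid (DCA), which forms when water is disinfected; mice drank it at 0, 1, 2 or 3.5 g/L, with 6 mice per dose, and their livers date from 1994; the length of that exposure is not given in the labels. Each of the 40 mice gave 1 formalin-fixed paraffin-embedded (FFPE) library and 1 frozen library, 80 in all, made from ribosomal RNA-depleted total RNA. The FFPE blocks held named lobes (left lateral, caudate and right medial for DEHP, left lateral and right medial for DCA), while the frozen pieces were of mixed lobes, so the effect of fixation and that of the lobes sampled cannot be told apart.

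Most of this pathway runs in mitochondria. Transamination, carried out there by Bcat2 and known to be weak in liver and strong in muscle, gives branched-chain 2-oxoacids, which the branched-chain 2-oxoacid dehydrogenase complex then commits to oxidation. Its E1 component is built from the products of Bckdha and Bckdhb on an E2 core made by Dbt; the kinase Bckdk switches E1 off by phosphorylation and the phosphatase Ppm1k switches it on again. Beyond the complex the pathways part: Ivd and the carboxylase subunits Mccc1 and Mccc2 act on leucine, and Hibch acts on valine. DEHP and DCA are both known as rodent liver peroxisome proliferators, and DCA also inhibits the kinases of the related pyruvate dehydrogenase complex.

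The 10 genes lie apart in the genome (build GRCm38, GENCODE gene bounds, all protein coding). Bckdha is at chr7:25629946-25658981 on the minus strand, Bckdhb at chr9:83925145-84124240 on the plus strand and Dbt at chr3:116513070-116549981 on the plus strand. Bckdk is at chr7:127904082-127910221 on the plus strand and Ppm1k at chr6:57506502-57535468 on the minus strand. Bcat2 is at chr7:45570153-45589711 on the plus strand and Ivd at chr2:118861954-118882909 on the plus strand. Mccc1 is at chr3:35959312-36000678 and Mccc2 at chr13:99948530-100015639, both on the minus strand, and Hibch is at chr1:52844929-52920986 on the plus strand. Both Bcat2 and Bckdha share exonic sequence with a gene on the other strand: Bcat2 shares 622 bases with the antisense transcript 0610005C13Rik, and Bckdha shares 1171 of its 1899 exonic bases with B3gnt8, which had 0 to 10 counts in each DEHP library. Mccc1 shares 94 exonic bases with Gm15952, 321 with the pseudogene B230207O21Rik and 198 with Mccc1os, all on the other strand and none tested in any comparison. The libraries were stranded, but the strand setting of the counting is not stated, so reads of such pairs cannot be told apart.

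The promoters of the 3 leucine genes and of Hibch are shown. These genes were among those called with both chemicals or in the difference between them, as were Bckdhb and Bcat2, whose windows are not shown. Each window is RefSeq sequence of GRCm38.p6 from 250 bases before to 50 bases after the annotated gene start, read 5′ to 3′ on the gene's strand. In the first 3, capitals mark CCAAT on either strand (written ATTGG when it lies on the other strand), and in Hibch they mark GGGCGG on either strand. The windows are chr2:118861744-118862043 (plus strand) for Ivd, chr3:36000629-36000928 (minus strand) for Mccc1, chr13:100015590-100015889 (minus strand) for Mccc2 and chr1:52844788-52845087 (plus strand) for Hibch.
Ivd: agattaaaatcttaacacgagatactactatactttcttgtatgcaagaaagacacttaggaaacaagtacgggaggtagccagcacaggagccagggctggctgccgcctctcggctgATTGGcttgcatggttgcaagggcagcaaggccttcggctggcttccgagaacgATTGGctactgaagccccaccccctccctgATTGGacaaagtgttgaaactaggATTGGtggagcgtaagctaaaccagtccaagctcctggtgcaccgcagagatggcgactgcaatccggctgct
Mccc1: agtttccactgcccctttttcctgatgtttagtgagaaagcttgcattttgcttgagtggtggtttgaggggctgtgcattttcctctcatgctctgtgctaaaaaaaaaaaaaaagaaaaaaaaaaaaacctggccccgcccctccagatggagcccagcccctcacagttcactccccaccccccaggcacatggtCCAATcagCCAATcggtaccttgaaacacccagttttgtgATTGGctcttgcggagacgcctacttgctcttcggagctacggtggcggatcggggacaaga
Mccc2: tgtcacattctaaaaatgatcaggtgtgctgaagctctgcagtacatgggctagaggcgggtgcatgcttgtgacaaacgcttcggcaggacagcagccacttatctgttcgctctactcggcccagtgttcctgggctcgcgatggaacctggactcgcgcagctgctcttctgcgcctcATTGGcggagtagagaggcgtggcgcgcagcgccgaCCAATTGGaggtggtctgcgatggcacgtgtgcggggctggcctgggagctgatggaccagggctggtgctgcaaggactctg
Hibch: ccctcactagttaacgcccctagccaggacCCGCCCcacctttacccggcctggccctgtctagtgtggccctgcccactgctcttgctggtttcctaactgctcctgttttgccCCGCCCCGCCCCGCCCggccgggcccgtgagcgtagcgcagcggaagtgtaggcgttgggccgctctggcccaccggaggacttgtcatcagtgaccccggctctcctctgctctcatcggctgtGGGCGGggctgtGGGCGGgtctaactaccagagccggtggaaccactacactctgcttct

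Ivd had 4 CCAAT matches, Mccc1 had 3 and Mccc2 had 3, of which the last 2 overlapped on opposite strands. At least 3 matches were found in 3.37% of all 32851 promoter windows of this length, and at least 1 in 37.4%. Hibch had no CCAAT but 6 GGGCGG matches. At least 1 GGGCGG was found in 35.7% of all windows, and the share with 6 was not counted. Bckdhb had 3 GGGCGG matches, Ppm1k had 2 and Mccc1 had 1, which is not marked above, and no other member's window had any. Among the members whose windows are not shown, CCAAT was found in Bckdhb, Ppm1k and Bckdk and not in Bckdha or Bcat2. A direct repeat of AGGTCA with 1 base between its copies, the textbook binding pattern of the receptor PPAR alpha, searched on both strands, was in no member's window and in 0.0396% of all windows. The motifs were chosen after the values of these genes had been seen, and a match is a description of the letters only. A window was found for 9 of the 10 members; Dbt had none.

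In untreated liver the 10 transcripts differed in level by more than 10-fold per length. In fragments scaled to transcript length and library total (FPKM), Bckdha was the highest member in the frozen controls of both exposures, at 57.6 ± 7.4 FPKM in the DEHP study (SD, n = 4) and 73.9 ± 6.1 FPKM in the DCA study (SD, n = 6). The kinase Bckdk, at 3.41 ± 0.56 and 3.43 ± 0.52 FPKM in the same controls, and the transaminase Bcat2, at 3.81 ± 0.35 and 5.58 ± 1.2 FPKM, were the lowest. In the DEHP frozen controls the 4 values of Bckdha lay above all others; Bckdhb (40.5 FPKM), Ivd (38.8 FPKM), Hibch (36.1 FPKM), Ppm1k (27.9 FPKM) and Dbt (25.7 FPKM) followed, each overlapping the next. Mccc2 (20.7 FPKM) and Mccc1 (11.3 FPKM) were lower, and Bcat2 and Bckdk overlapped each other. In the DCA frozen controls Bckdha overlapped Ivd (63.7 FPKM), which lay above Bckdhb (39.2 FPKM), Dbt (34.5 FPKM), Hibch (31.2 FPKM), Ppm1k (25.8 FPKM), Mccc2 (23.6 FPKM) and Mccc1 (18.2 FPKM). FFPE controls of the DEHP study kept Bckdha highest (44.5 FPKM) and Bckdk lowest (3.25 FPKM). Thus the phosphatase transcript was several times as abundant as the kinase transcript in every one of these control groups.

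**Figure D1:**
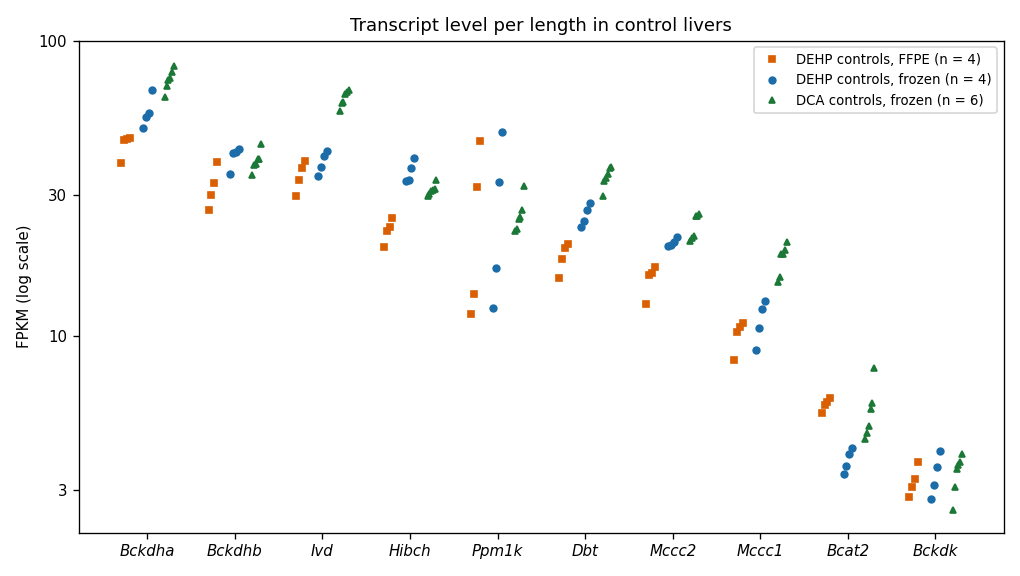
FPKM (logarithmic axis) of the 10 genes in control livers, 1 point per library: DEHP-study FFPE and frozen livers (4 mice) and DCA-study frozen livers (6 mice). Bckdha sits at the top in the 3 sets, and Bckdk and Bcat2 lie below 10 FPKM.

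From here, levels within a comparison are CPM (counts scaled to a common library total) adjusted by the trimmed mean of M values. A change was called when its edgeR quasi-likelihood p, adjusted over all genes tested (Benjamini-Hochberg), was under 0.05. For comparisons of doses or chemicals the p-values measure the spread between mice of a dose group. For comparisons of FFPE with frozen libraries, paired by mouse, they measure the spread of the differences within mice. Whole liver was sequenced, so fewer cells of a type and less RNA per cell cannot be told apart.

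With DEHP, transcripts of the later steps were called at more doses than those of the dehydrogenase complex. Hibch and Mccc2 rose at every dose in both preparations, by 1.29-fold to 1.66-fold. Ivd and Mccc1 rose at every dose in FFPE livers, and Bcat2 fell there at 3000 and 6000 ppm. In FFPE livers 5 of the 10 genes rose and none fell at 1500 ppm, where 5.86% of 13581 tested genes were called (4.55% higher and 1.31% lower). At 3000 ppm 5 rose and 1 fell (9.39% of genes called, 6.15% higher and 3.24% lower), and at 6000 ppm 4 rose and 1 fell (12.4%, 7.94% higher and 4.43% lower). In frozen livers 3 rose and none fell at 1500 ppm, where 6.48% of 13802 genes were called (4.34% higher and 2.14% lower). At 3000 ppm 2 rose (14.7%, 8.17% higher and 6.48% lower), as did 2 at 6000 ppm (11.8%, 7.05% higher and 4.72% lower). All 10 genes passed the filter on low counts in both preparations. In frozen livers only mice 72B (1500 ppm), 35A (3000 ppm) and 8C (6000 ppm) shared a sequencing run with any control. Run and dose therefore cannot be fully told apart there, and estimates with run as a term rest on few shared libraries.

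Hibch, the hydrolase that frees 3-hydroxyisobutyrate in valine breakdown, changed most among the genes that rose. In FFPE livers its CPM was 34.3, 32.7, 35.4 and 40.6 in the controls, 48.8, 54.0, 53.3 and 61.1 at 1500 ppm, 66.4, 49.0, 54.2 and 68.1 at 3000 ppm, and 46.3, 56.2, 57.2 and 68.2 at 6000 ppm. In the frozen livers of the same mice it was 65.3, 58.3, 54.8 and 65.5 in the controls, 76.3, 87.3, 96.6 and 94.5 at 1500 ppm, 92.4, 108, 93.6 and 99.5 at 3000 ppm, and 78.8, 100.2, 86.9 and 99.6 at 6000 ppm. No treated library of either preparation overlapped the controls. The log2 change at 6000 ppm was 0.67 ± 0.14 in FFPE livers (SE, adjusted p = 0.0036) and 0.58 ± 0.11 in frozen livers (adjusted p = 0.00196). At 3000 ppm it was 0.73 ± 0.14 in FFPE livers (adjusted p = 0.00218) and 0.69 ± 0.11 in frozen livers (adjusted p = 0.000526). At 1500 ppm it was already 0.60 ± 0.14 in FFPE livers (adjusted p = 0.0151) and 0.54 ± 0.11 in frozen livers (adjusted p = 0.00707). Of these 6 calls, 1 was lost when a library was left out, that at 1500 ppm in FFPE livers without control 45C (adjusted p = 0.0519).

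Mccc2 encodes the beta subunit of 3-methylcrotonyl-CoA carboxylase. In frozen livers it had 41.92, 41.57, 41.02 and 41.63 CPM in the controls, 51.5, 55.9, 59.1 and 56.7 CPM at 1500 ppm, 59.3, 56.5, 57.2 and 60.3 CPM at 3000 ppm, and 48.5, 53.8, 54.1 and 58.2 CPM at 6000 ppm. The controls lay within 1 CPM of each other, and every treated library lay above them. Over all dose groups its spread between mice, a log2 SD of 0.065 within a dose, ranked 14050 of 14065 genes from the most to the least variable. The log2 changes in frozen livers were 0.43 ± 0.08 at 1500 ppm (adjusted p = 0.00493), 0.49 ± 0.08 at 3000 ppm (adjusted p = 0.000771) and 0.37 ± 0.08 at 6000 ppm (adjusted p = 0.00634). These calls were kept without any 1 library and once the sequencing run was included, where adjusted p was 0.042, 0.0203 and 0.0482 in the same order of doses. FFPE livers gave changes of similar size, 0.47 ± 0.12 (adjusted p = 0.0276), 0.46 ± 0.12 (adjusted p = 0.0204) and 0.38 ± 0.12 (adjusted p = 0.0444), on controls of 29.6, 31.5, 30.5 and 23.2 CPM. There the calls depended on single libraries: adjusted p reached 0.0825 at 1500 ppm (lost without control 63A or 75A, or without 40A, 60A or 72B), 0.0655 at 3000 ppm (lost without control 75A or without 35A) and 0.143 at 6000 ppm (lost without control 32A, 63A or 75A, or without 44A, 64C or 8C). Including the sequencing run ended the FFPE calls at 1500 ppm (adjusted p = 0.055) and 3000 ppm (adjusted p = 0.0657).

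Mccc1 encodes the biotin-carrying alpha subunit of the same enzyme, and its rise was called in FFPE livers only. Its FFPE levels were 30.56, 30.04, 33.32 and 34.4 CPM at 6000 ppm, against 27.2, 27.8, 25.3 and 21.9 CPM in the controls, without overlap, and the log2 change was 0.33 ± 0.10 (adjusted p = 0.0378). The changes at 1500 ppm and 3000 ppm were 0.40 ± 0.10 each (adjusted p = 0.0265 and 0.0168). In frozen livers the change was 0.21 ± 0.13 at 1500 ppm (adjusted p = 0.397), 0.33 ± 0.13 at 3000 ppm (adjusted p = 0.102) and 0.06 ± 0.13 at 6000 ppm (adjusted p = 0.831). The frozen livers at 3000 ppm lay above all controls (38.4 to 42.1 CPM against 26.9 to 36.3 CPM), and those at the other doses overlapped them. The difference between the 6000 ppm effects of the preparations was 0.29 ± 0.12 on the log2 scale; it did not pass. Each FFPE call was lost without some single library: without control 63A or 75A, or 3A, 40A, 60A or 72B, at 1500 ppm (adjusted p up to 0.0892), without control 63A or 75A, or 35A, at 3000 ppm (up to 0.0546), and without control 63A or 75A, or 44A, 64C or 8C, at 6000 ppm (up to 0.111). Including the sequencing run ended the FFPE calls at 1500 ppm (adjusted p = 0.0795) and 3000 ppm (adjusted p = 0.0546). The log2 ratio of Mccc1 over Mccc2 in FPKM averaged -0.89 in the frozen controls, -1.06 at 1500 ppm, -1.05 at 3000 ppm and -1.14 at 6000 ppm.

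Ivd, the isovaleryl-CoA dehydrogenase of leucine breakdown, rose at all doses in FFPE livers and at 1500 ppm in frozen livers. At 1500 ppm the FFPE livers had 97.0, 101, 96.5 and 96.6 CPM, against 62.8, 78.2, 68.5 and 59.4 CPM in the controls. In the frozen livers the values were 105.6, 109.6, 107.3 and 108.0 CPM at 1500 ppm, against 84.8, 78.2, 82.2 and 74.95 CPM in the controls. Neither pair of groups overlapped, and the 1500 ppm group was the most uniform of the dose groups. The log2 change at 1500 ppm was 0.54 ± 0.12 in FFPE livers (adjusted p = 0.0149, and 0.0545 without control 75A) and 0.43 ± 0.10 in frozen livers (adjusted p = 0.0222). That frozen call was lost without control 75A or without 40A or 60A (adjusted p up to 0.057), and with run as a term the change was 0.52 (adjusted p = 0.0599). At 6000 ppm the change was 0.43 ± 0.12 in FFPE livers (adjusted p = 0.0284) and 0.26 ± 0.10 in frozen livers (adjusted p = 0.124). The FFPE calls at 3000 ppm (0.43 ± 0.12, adjusted p = 0.0345) and at 6000 ppm did not survive the loss of control 32A, 63A or 75A, of 35A, 67C or 71A at 3000 ppm (adjusted p up to 0.1001) or of 29B, 44A or 64C at 6000 ppm (up to 0.0824).

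The transaminase transcript Bcat2 went the other way. In FFPE livers its CPM was 9.91, 10.9, 9.29 and 9.49 in the controls, 6.12, 6.59, 7.14 and 8.60 at 1500 ppm, 5.93, 5.22, 5.62 and 5.46 at 3000 ppm, and 7.37, 5.42, 7.07 and 6.23 at 6000 ppm. Every treated library was below every control. The log2 change was -0.83 ± 0.14 at 3000 ppm (adjusted p = 0.00139) and -0.60 ± 0.14 at 6000 ppm (adjusted p = 0.0109), calls that held without any 1 library (adjusted p up to 0.0485), and -0.47 ± 0.14 at 1500 ppm (adjusted p = 0.06). In frozen livers the values at 6000 ppm were 6.00, 4.46, 5.84 and 3.89 CPM, against 6.75, 7.65, 6.19 and 6.32 CPM in the controls. These groups did not overlap either, but the changes of -0.42 ± 0.21 at 6000 ppm (adjusted p = 0.234) and -0.63 ± 0.22 at 3000 ppm (adjusted p = 0.059) did not pass. The antisense transcript that shares bases with Bcat2, 0610005C13Rik, fell in the same comparisons, to 27.3 ± 8.9 CPM at 6000 ppm against 40.4 ± 3.7 CPM in the controls of FFPE livers (adjusted p = 0.0314) and to 21.6 ± 5.8 CPM against 35.9 ± 4.8 CPM in frozen livers (adjusted p = 0.0092). Frozen control 45C, whose 4 skeletal muscle markers summed to 51.6 CPM (at most 0.722 CPM in any FFPE library of the study), had the highest Bcat2 of the frozen controls, and the part of the antisense transcript or of muscle in the Bcat2 result was not tested.

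Of the subunits of the complex, Bckdhb and Bckdha were each called at 1 dose by edgeR and Dbt at none. Bckdhb, the E1 beta subunit, had a log2 change of 0.42 ± 0.12 in FFPE livers at 3000 ppm (adjusted p = 0.0345), a call that was lost without control 32A, 45C or 75A or without 35A or 9A (adjusted p up to 0.104), and once the sequencing run was included (adjusted p = 0.122). At the other doses and in frozen livers its changes were 0.27 to 0.36, and none passed. In frozen livers at 3000 ppm it was called by DESeq2, another test (adjusted p = 0.0251), but not by edgeR with run as a term (adjusted p = 0.255). Bckdha, the E1 alpha subunit, was called only in FFPE livers at 1500 ppm, with 108, 117, 109.5 and 105 CPM against 73.2, 79.4, 74.2 and 65.5 CPM in the controls. The log2 change was 0.59 ± 0.16 (adjusted p = 0.0428), and leaving out any 1 of those 8 libraries (32A, 45C, 63A, 75A, 3A, 40A, 60A or 72B) ended the call (adjusted p up to 0.12). In frozen livers all 4 mice at 1500 ppm also lay above the controls (0.42 ± 0.16, adjusted p = 0.138), and that change was 0.77 once the sequencing run was included as a term (adjusted p = 0.0362). Dbt, the E2 core, was at 68.3 ± 5.9 CPM at 6000 ppm against 85.2 ± 4.2 CPM in the controls of frozen livers, without overlap, a change of -0.32 ± 0.11 that did not pass (adjusted p = 0.0595). It was called there by DESeq2 (adjusted p = 0.045), but not by edgeR with run as a term (-0.19, adjusted p = 0.46). In FFPE livers the change was -0.16 ± 0.13 (adjusted p = 0.478).

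Within each frozen liver the balance of these subunits could be read as a ratio, which does not depend on the scaling between libraries. The log2 ratio of Bckdhb over Dbt in FPKM averaged 0.66 in the controls, 0.89 at 1500 ppm, 1.11 at 3000 ppm and 1.24 at 6000 ppm. The 6000 ppm mice (0.996 to 1.39) lay above the controls (0.536 to 0.870). FFPE livers gave 0.78, 1.05, 1.01 and 1.28 at the same doses. The ratios with Bckdha did not climb in step with dose in frozen livers. Bckdha over Bckdhb averaged 0.50 in the controls, 0.64 at 1500 ppm, 0.10 at 3000 ppm and 0.50 at 6000 ppm. Bckdha over Dbt averaged 1.16, 1.53, 1.21 and 1.74 at the same doses. No test was made of these ratios.

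**Figure D2:**
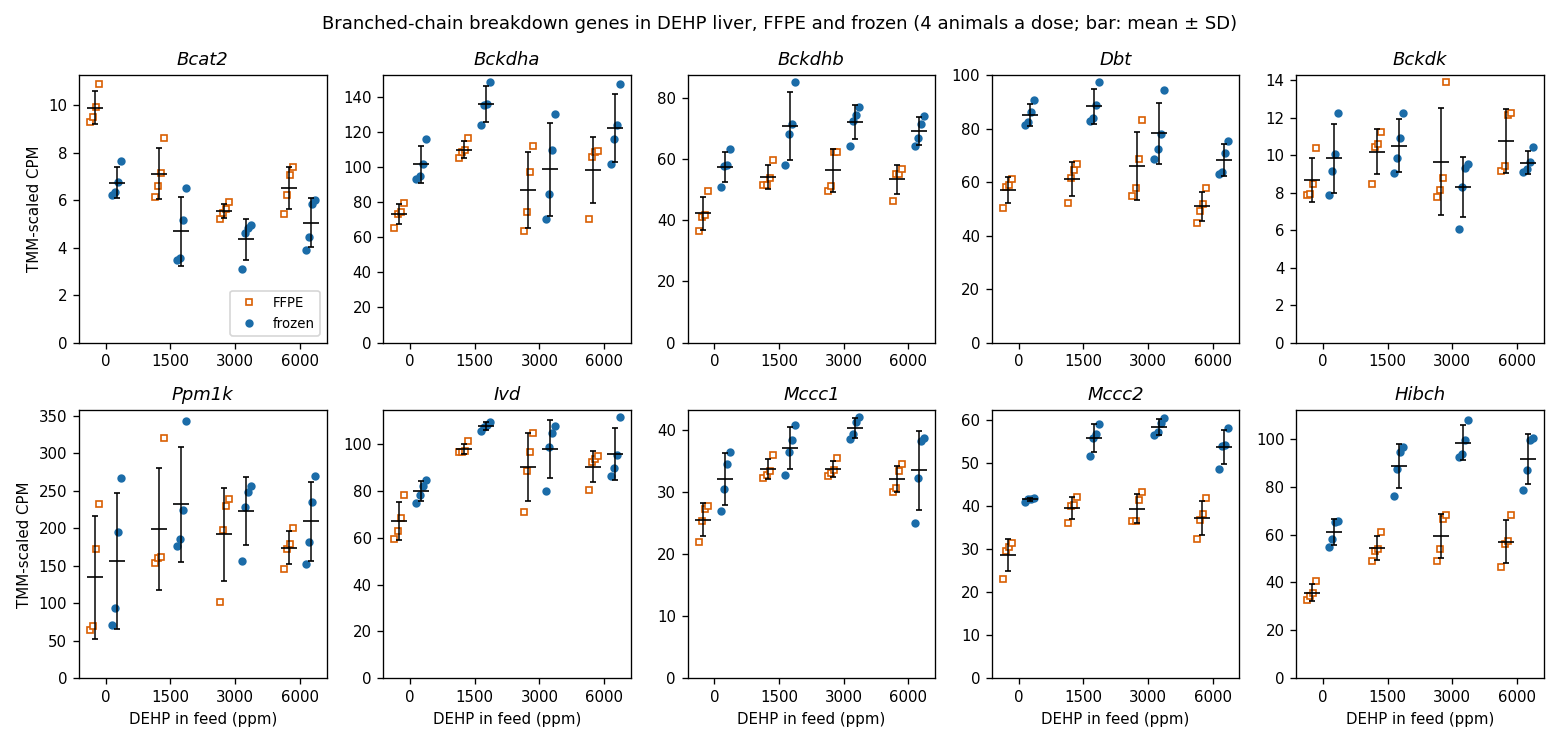
Scaled CPM of the 10 genes by DEHP dose, 1 point per mouse with the mean and SD of 4 mice, FFPE libraries (orange squares) left of frozen libraries (blue circles). Hibch and Mccc2 lie above their controls at every dose in both, and Bcat2 in FFPE livers lies below.

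Hibch, Mccc2 and Ivd in frozen livers, and with Mccc1 and Bckdha in FFPE livers, were already called at the lowest dose. Between 6000 and 1500 ppm in frozen livers, 0 of the 10 genes differed, as did 0% of the 13802 genes by edgeR. By DESeq2 16 genes of the table were called, none of them a member. At an unadjusted edgeR p under 0.05 there were 835 genes, 1 of them a member, Dbt. Its log2 difference was -0.37 ± 0.11 (adjusted p = 0.586), with 68.3 ± 5.9 CPM at 6000 ppm and 88.3 ± 6.7 CPM at 1500 ppm. With 4 mice a dose the absence of a call does not show that the doses act alike.

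The kinase Bckdk and the phosphatase Ppm1k were not called at any DEHP dose. Bckdk, at 6.04 to 12.3 CPM over all frozen livers, had a log2 change of -0.03 ± 0.16 at 6000 ppm (adjusted p = 0.941). Ppm1k varied between mice more than any other member. The FFPE libraries of controls 32A, 45C, 63A and 75A had 232, 64.3, 70.2 and 172.5 CPM, and the frozen libraries of those mice had 267, 71.4, 93.5 and 195.5 CPM. The 2 high and the 2 low controls were therefore the same mice in both preparations. Mouse 72B at 1500 ppm was highest of all, with 320.3 CPM in FFPE and 343 CPM in frozen liver. Within dose groups the log2 SD of Ppm1k between mice was 0.61 in FFPE and 0.55 in frozen livers, while the SD of the difference between the preparations of a mouse was 0.23; for the median gene the SDs were 0.30, 0.26 and 0.31. Bckdha was the opposite, with SDs of 0.25 and 0.24 but 0.44 for the difference: mouse 8C had 70.4 CPM in FFPE and 147 CPM in frozen liver, and mouse 71A had 112 CPM in FFPE and 84.5 CPM in frozen liver. Over all genes the FFPE library of 8C did not correlate best with the frozen library of that mouse. At 6000 ppm Ppm1k changed by 0.37 ± 0.37 in FFPE livers (adjusted p = 0.561) and by 0.42 ± 0.34 in frozen livers (adjusted p = 0.483), and by 0.96 with run as a term (adjusted p = 0.224).

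**Figure D3:**
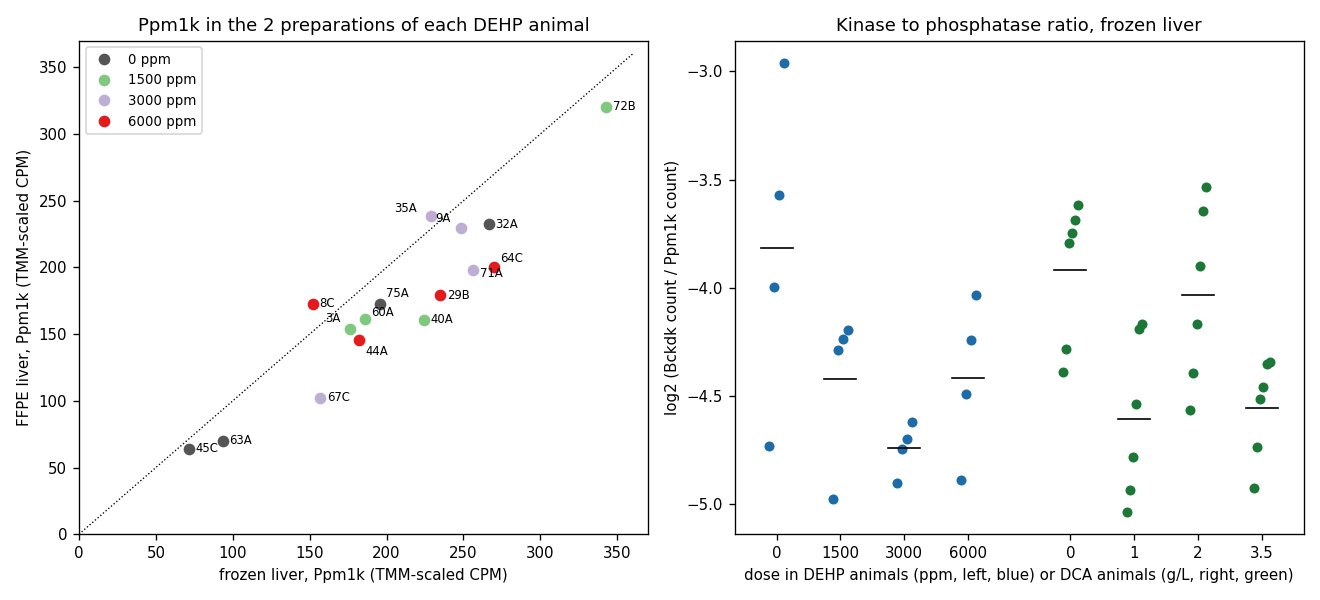
Left, Ppm1k in scaled CPM of each DEHP-study mouse, FFPE (y axis) against frozen (x axis), with a dotted line of equality; the points follow the line from 64.3 to 343 CPM. Right, the log2 ratio of Bckdk over Ppm1k counts in frozen livers by dose, 1 point per mouse, for DEHP (left) and DCA (right).

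With DCA, transcripts of these genes were called in both directions. Most treated frozen libraries lay in other lanes than the controls, as described below. In frozen livers at 3.5 g/L Bckdhb, Ppm1k and Hibch rose while Dbt, Bckdk, Bcat2, Ivd and Mccc1 fell, so that 8 of the 10 genes were called, in a comparison where 43% of 13089 genes were (21.9% higher and 21.1% lower). At 2 g/L 2 rose and 3 fell (29.2% of genes called, 15.5% higher and 13.7% lower), and at 1 g/L 1 rose and 1 fell (11.1%, 4.11% higher and 7.01% lower). Between 3.5 and 1 g/L 2 were higher and 2 lower (24.8%, 14.6% higher and 10.3% lower). All 10 passed the filter.

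Ivd showed the steadiest decline with DCA. Its lowest, median and highest CPM were 121, 130.1 and 136.5 in the controls, 103, 112 and 120.1 at 1 g/L, 77.2, 97.0 and 104 at 2 g/L, and 84.2, 94.0 and 95.2 at 3.5 g/L. No mouse of any treated group overlapped the controls. The log2 change was -0.21 ± 0.06 at 1 g/L (adjusted p = 0.0278), -0.45 ± 0.06 at 2 g/L (adjusted p = 8.58e-06) and -0.50 ± 0.06 at 3.5 g/L (adjusted p = 5.1e-07), and 3.5 g/L was below 1 g/L by a further -0.29 ± 0.06 (adjusted p = 0.000971). The call at 1 g/L was lost without control 4, 5 or 7 or without 51, 52 or 54 (adjusted p up to 0.0739), and once the sequencing run was included (-0.19, adjusted p = 0.114). Mccc1, whose enzyme takes up the product of Ivd, fell by 0.43 ± 0.09 at 2 g/L (adjusted p = 0.000651) and by 0.27 ± 0.08 at 3.5 g/L (adjusted p = 0.0131) on the log2 scale. Its lowest, median and highest CPM were 24.0, 34.0 and 39.0 at 2 g/L and 33.0, 36.9 and 40.8 at 3.5 g/L, against 39.1, 45.6 and 48.9 in the controls. Mccc2, which encodes the partner subunit, was within its spread: 39.7 to 50.3 CPM at 3.5 g/L against 42.8 to 51.4 CPM in the controls, a change of -0.06 ± 0.07 (adjusted p = 0.535).

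Hibch rose with DCA as with DEHP. Its lowest, median and highest CPM were 63.6, 71.7 and 75.0 at 3.5 g/L against 47.8, 50.3 and 55.1 in the controls, without overlap. The log2 change was 0.05 ± 0.07 at 1 g/L (adjusted p = 0.7004), 0.35 ± 0.07 at 2 g/L (adjusted p = 0.000334) and 0.47 ± 0.07 at 3.5 g/L (adjusted p = 4.23e-06), and 3.5 g/L exceeded 1 g/L by 0.42 ± 0.07 (adjusted p = 3.01e-05). Bckdhb followed the same course, with changes of 0.26 ± 0.06 at 2 g/L (adjusted p = 0.00384) and 0.39 ± 0.06 at 3.5 g/L (adjusted p = 1.79e-05). The 6 mice at 3.5 g/L had 67.2 to 76.3 CPM, against 48.0 to 63.0 CPM in the 6 controls. Dbt, whose product is the core that E1 binds, fell by 0.28 ± 0.06 at 2 g/L (adjusted p = 0.000875) and by 0.20 ± 0.06 at 3.5 g/L (adjusted p = 0.00728). Its 3.5 g/L values of 96.7 to 103 CPM overlapped the controls of 97.5 to 125.5 CPM only through control 3, the lowest. The log2 ratio of Bckdhb over Dbt in FPKM averaged 0.18 in the controls, 0.25 at 1 g/L, 0.72 at 2 g/L and 0.78 at 3.5 g/L, and the mice at 3.5 g/L (0.695 to 0.864) lay above the controls (0.086 to 0.412). The calls of Bckdhb, Dbt, Ivd, Mccc1 and Hibch at 2 and 3.5 g/L held without any 1 library and under each of 9 other settings. Among these settings, sequencing run as a term is no check here, since the frozen controls and the libraries at 2 and 3.5 g/L shared a run. No setting took the lane into account.

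The kinase and the phosphatase moved apart at 3.5 g/L, on calls that rested on single mice. Ppm1k had 172, 189 and 228 CPM (lowest, median and highest) at 3.5 g/L against 129, 144 and 188 CPM in the controls, a log2 change of 0.38 ± 0.13 (adjusted p = 0.0219, and up to 0.0649 without control 3 or without 97). At 1 g/L it was 156, 216 and 299 CPM, a change of 0.53 ± 0.13 (adjusted p = 0.0129, and 0.0602 with run as a term), and at 2 g/L it did not pass (0.17 ± 0.13, adjusted p = 0.365). Its course over the doses was therefore not a steady one. Bckdk had 6.86, 8.53 and 9.12 CPM at 3.5 g/L against 7.37, 10.2 and 11.2 CPM in the controls, a change of -0.25 ± 0.10 (adjusted p = 0.0445) that was lost without control 3, 5, 6 or 8 or without 97 or 100 (adjusted p up to 0.11), and by DESeq2. It was also lost with a second deposited set of counts (adjusted p = 0.0589). The log2 ratio of Bckdk over Ppm1k counts was -4.93 to -4.34 at 3.5 g/L and -4.39 to -3.62 in the controls, which overlapped. Bcat2 fell at 3.5 g/L, to 6.31, 7.17 and 9.77 CPM against 7.94, 9.25 and 13.3 CPM, by 0.37 ± 0.15 on the log2 scale (adjusted p = 0.0456), a call that was lost without control 3, 5 or 6 or without 97, 98, 99, 100 or 102 (adjusted p up to 0.158). The second set of counts did not give the Bcat2 call either (adjusted p = 0.0672). The 5 skeletal muscle markers summed to 1168 CPM in frozen control 5 and 72.9 CPM in frozen control 6, where Bcat2 was 9.71 and 10.04 CPM, and to under 1 CPM in the other frozen DCA libraries, among them control 3, which had the highest Bcat2. The antisense 0610005C13Rik was at 29.8 ± 2.5 CPM at 3.5 g/L against 39.1 ± 5.3 CPM in the controls (adjusted p = 0.000756), and the part of either in the Bcat2 result was not tested. Bckdha did not pass at any DCA dose, with -0.09 ± 0.10 at 3.5 g/L (adjusted p = 0.514).

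**Figure D4:**
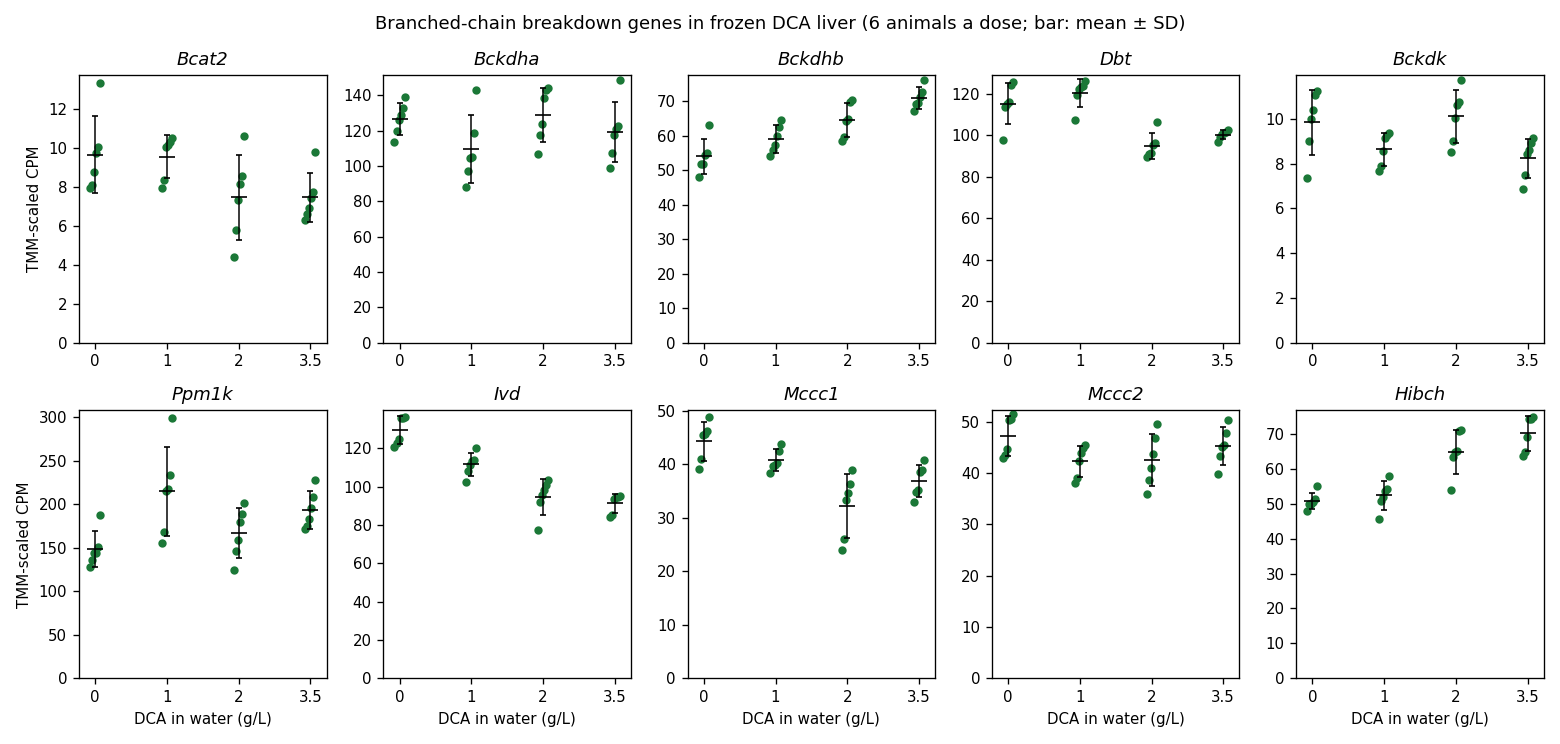
Scaled CPM of the 10 genes by DCA dose in frozen livers, 1 point per mouse with the mean and SD of 6 mice. Ivd falls at each dose up to 2 g/L and Hibch and Bckdhb lie above all controls at 3.5 g/L, with Hibch between 63.6 and 75.0 CPM.

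The frozen DCA libraries were not spread evenly over the sequencing lanes. All 3.5 g/L libraries shared a lane that held no frozen control, and the 2 g/L libraries and all 1 g/L libraries but 49 also lay in lanes without one. For the 2 higher doses, lane and dose therefore cannot be told apart, and at 1 g/L a single treated library shared the lane of the controls. The 3 libraries of 2 g/L with the lowest depth lay in a lane apart from the other 3. Without those 3 libraries the 5 calls at 2 g/L were kept, with Mccc1 at -0.28 (adjusted p = 0.0155) and Ivd at -0.38 (adjusted p = 0.000448). Markers of several cell types were called lower in the frozen DCA livers at 3.5 g/L, where 21.1% of all genes were called lower and 21.9% higher. The 7 hepatocyte markers summed to 64830 to 83130 CPM against 86280 to 106900 CPM in the controls (1 rose and 4 fell), and the 8 Kupffer cell markers summed to 146 to 222 CPM against 270 to 375 CPM (7 fell). Of 6 stellate cell markers 5 fell (445 to 585 CPM against 569 to 747 CPM), of 6 endothelial markers 2 fell (295 to 332 CPM against 330 to 390 CPM), and of 4 red blood cell markers 4 fell (305 to 616 CPM against 499.8 to 1395 CPM). At 2 g/L 5 of the 7 hepatocyte markers fell (52100 to 83180 CPM against 86280 to 106900 CPM), as did 4 of 6 stellate cell markers (446 to 544 CPM against 569 to 747 CPM) and 4 of 4 red blood cell markers (289 to 686 CPM against 499.8 to 1395 CPM). Of all genes 13.7% were called lower and 15.5% higher at 2 g/L. The part of the cell types in the results of the 10 genes was not tested. In DEHP livers at 6000 ppm 2 of the 7 hepatocyte markers fell in frozen liver (43750 to 59280 CPM against 55550 to 73710 CPM) and 1 in FFPE liver (32060 to 36700 CPM against 31740 to 40290 CPM), and no Kupffer cell marker was called. Of all genes 4.72% were called lower at that dose in frozen livers and 4.43% in FFPE livers.

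Set side by side at their top doses in frozen liver, the 2 chemicals differed for 2 of the 10 genes, in a comparison where 13.3% of 13219 genes differed (6.48% higher and 6.85% lower with DEHP). The doses and routes of the chemicals are not matched. For Ivd the DEHP effect minus the DCA effect was 0.78 ± 0.11 on the log2 scale (adjusted p = 8.8e-06): at 6000 ppm DEHP all 4 mice lay above their controls, and at 3.5 g/L DCA all 6 lay below theirs. For Mccc2 the difference was 0.44 ± 0.11 (adjusted p = 0.00513). Both held without any 1 of the 20 libraries and were called with run as a term (Ivd 0.90, adjusted p = 3.21e-05; Mccc2 0.50, adjusted p = 0.0133). That term is no check on the DCA side, where controls and 3.5 g/L libraries shared a run but no lane. On the DEHP side, mouse 8C gave the only 6000 ppm library in a run with controls. Bckdha, at 0.37 ± 0.18 (adjusted p = 0.182), was called when run was a term (0.69, adjusted p = 0.0128). For Hibch the difference was 0.13 ± 0.12 (adjusted p = 0.494) and for Bckdhb -0.11 ± 0.11 (adjusted p = 0.567), which does not show that the chemicals act alike. The study, the year of collection and the chemical cannot be told apart here, and the DCA effect also carries any difference between lanes.

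**Figure D5:**
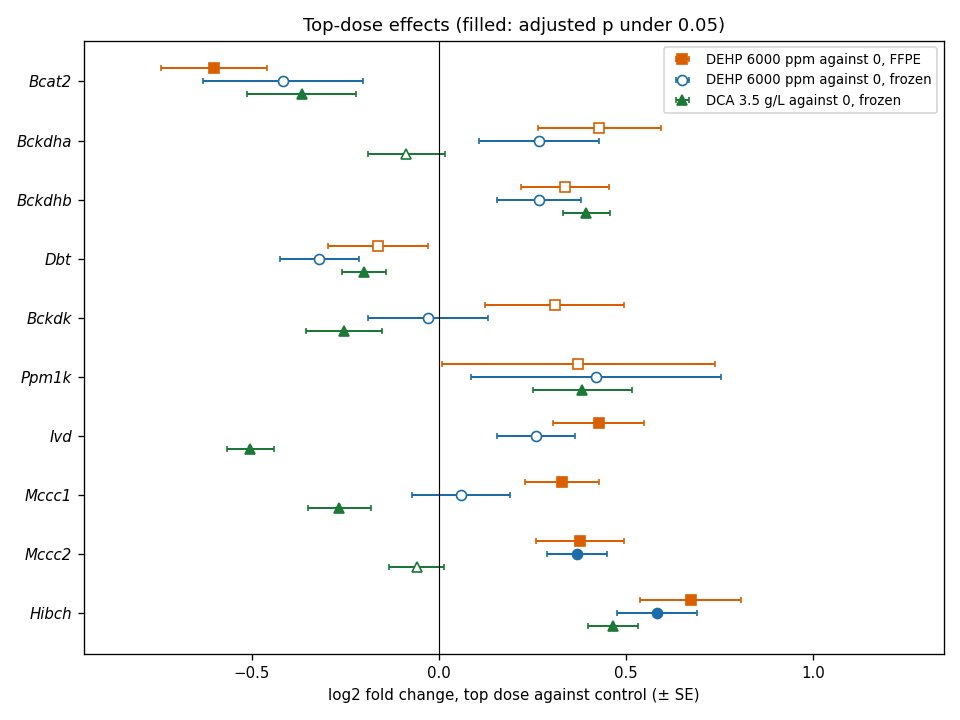
Log2 change against the controls with its standard error for each of the 10 genes, at 6000 ppm DEHP in FFPE and in frozen livers and at 3.5 g/L DCA in frozen livers; filled symbols have an adjusted p under 0.05. Ivd lies to the positive side with DEHP (0.43 in FFPE liver) and to the negative side with DCA (-0.50).

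Levels differed between the preparations of the same mouse for most members, as for most genes tested. In the 16 DEHP-study mice, 7 of the 10 genes differed between FFPE and frozen libraries, as did 64.2% of 14065 genes (32.9% higher and 31.3% lower in FFPE libraries). Hibch averaged 53.4 ± 12.1 CPM in FFPE and 82.0 ± 16.0 CPM in frozen libraries (SD, n = 16; a log2 change of -0.63 ± 0.04, adjusted p = 5.36e-11, lower in 16 of 16 mice). Mccc2 averaged 37.5 ± 5.9 CPM in FFPE and 50.6 ± 6.8 CPM in frozen libraries (-0.44 ± 0.04, adjusted p = 9.93e-10, lower in 16 of 16). Bcat2 was the exception, at 7.52 ± 1.8 CPM in FFPE and 5.03 ± 1.3 CPM in frozen libraries (0.58 ± 0.06, adjusted p = 3.82e-08, higher in 16 of 16). Bckdhb (-0.29 ± 0.04), Dbt (-0.35 ± 0.05), Bckdha (-0.22 ± 0.09, adjusted p = 0.0331) and Ppm1k (-0.15 ± 0.05, adjusted p = 0.0127) were lower in FFPE libraries. The Bckdha call was lost without mouse 32A, 35A or 8C (adjusted p up to 0.0708), and the Ppm1k call without the pairing of libraries by mouse (adjusted p = 0.559). Neither the members (0 called) nor the table as a whole (0% of 14065 genes by edgeR, and 0 by DESeq2) showed a 6000 ppm effect that differed between the preparations; at an unadjusted p under 0.05 there were 254 genes, with Mccc1 the 1 member.

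The DCA-study FFPE libraries could not be read in this way. They held 109292 to 8434613 counts, with 2167545 or more in each control, 109292 to 505807 at 2 g/L and 182116 to 653006 at 3.5 g/L. The ribosomal RNA precursor Rn45s made up 4.89% to 84.2% of these counts (median 56.5%), against 0.195% to 1.57% in the frozen libraries, so fewer counts fell on other genes. The controls and treated groups were mostly sequenced in different runs. Of the 18 treated libraries Bckdk was at 0 in 13 and Mccc2 at 0 in 12, and the most counts seen in a treated library were 423 for Ivd and 416 for Dbt. In the 6 controls the median count was 272 for Ivd, 208 for Bckdha and 15.5 for Bckdk. Bckdk, Bcat2 and Mccc2 did not pass the filter, and of the 7 members tested none was called at 1 g/L (0.126% of 4772 genes, 0.105% higher and 0.021% lower), 2 g/L (0.335%, 0.251% higher and 0.0838% lower) or 3.5 g/L (0.293%, 0.21% higher and 0.0838% lower), by edgeR or by DESeq2, and 0 had an unadjusted p under 0.05. The part of depth, of run and of the Rn45s share in this was not tested. The 3 PPAR alpha targets used as a check were called at 2 and 3.5 g/L in these libraries, and 1 of the 3 was called at 1 g/L. Against the frozen libraries of the same 24 mice, 9 members were lower in FFPE libraries (60.6% of 11526 genes differed, 1.21% higher and 59.4% lower), on a median of all genes of -1.54. Under the DESeq2 scaling, where that median is -0.63 and 2519 of the 11526 genes were called, Dbt (-1.06, adjusted p = 0.0343) and Mccc2 (-1.60, adjusted p = 0.012) were lower in FFPE libraries and Bcat2 was higher (1.87, adjusted p = 0.00368).

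The rest of the pathway was read from a list of 12 further enzymes. Of the 11 that were tested, 4 rose and 1 fell at 6000 ppm DEHP in FFPE livers (median log2 change 0.22, against -0.01 over all genes). In frozen livers likewise 4 rose and 1 fell (median 0.22, against -0.03). Of all genes 12.4% were called in that FFPE comparison and 11.8% in the frozen one. Bcat1, the cytosolic transaminase, was not tested for lack of counts. At 3.5 g/L DCA 8 rose and 2 fell (median 0.22, against -0.02), with 43% of all genes called. The risers were led by Acadm, the medium-chain acyl-CoA dehydrogenase, which is shared with fatty acid oxidation, at 1.76 ± 0.22 in FFPE liver and 1.69 ± 0.20 in frozen liver with DEHP and 1.40 ± 0.11 with DCA. Acadsb, the dehydrogenase of the isoleucine branch that parallels Ivd and is named here after its values were seen, fell with both chemicals: to 87.8 ± 10.9 CPM against 130.1 ± 9.5 CPM in FFPE livers and to 134.8 ± 20.0 CPM against 191.1 ± 12.8 CPM in frozen livers at 6000 ppm DEHP, and to 129.9 ± 7.7 CPM against 195.6 ± 16.95 CPM at 3.5 g/L DCA. Acadsb thus fell in FFPE livers of the DEHP study, where Ivd rose, and fell with DCA, where Ivd also fell.

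Propionyl-CoA, the end product of valine and isoleucine, is handled by another list of 9 genes. With DEHP at 6000 ppm 2 rose and none fell in either preparation. Of all genes 12.4% were called at that dose in FFPE and 11.8% in frozen livers. The 2 were Mmadhc (1.202 ± 0.192 in FFPE and 1.14 ± 0.18 in frozen livers) and Mmab (0.74 ± 0.20 and 0.76 ± 0.21), both of cobalamin metabolism. With DCA at 3.5 g/L, where 43% of all genes were called, 3 rose and 3 fell (median 0.02, against -0.02 over all genes): Mmadhc rose by 1.47 ± 0.09, and Pccb, the beta subunit of propionyl-CoA carboxylase, fell to 46.8 ± 4.1 CPM against 98.1 ± 5.7 CPM (-1.07 ± 0.11, adjusted p = 3.32e-08). Of 7 genes of biotin enzymes and the biotin cycle, relatives of Mccc1, Acacb alone was called at 6000 ppm DEHP (1.13 ± 0.33 in FFPE, adjusted p = 0.0336, and 1.05 ± 0.30 in frozen livers, adjusted p = 0.0332), while at 3.5 g/L DCA Acaca rose (1.17 ± 0.13, adjusted p = 5.56e-08) and 2 fell, Pccb among them. Of 8 transporter genes none was called with DEHP at 6000 ppm and 2 rose and 4 fell with DCA at 3.5 g/L, where Slc25a44, the mitochondrial carrier, rose by 0.49 ± 0.08 and Slc7a8 fell by 0.83 ± 0.13 on the log2 scale.

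The sister complexes that oxidise pyruvate and 2-oxoglutarate gave 13 genes. At 6000 ppm DEHP 2 of 12 tested rose in FFPE livers (12.4% of all genes called) and 3 of 13 in frozen livers (11.8%), with none lower. Dlst, the E2 of the 2-oxoglutarate complex and so the counterpart of Dbt, rose by 0.82 ± 0.12 and 0.78 ± 0.11. Pdk4, a pyruvate dehydrogenase kinase, rose by 2.69 ± 0.68 and 2.74 ± 0.57. At 3.5 g/L DCA, with 43% of all genes called, 8 rose and 4 fell (median 0.50, against -0.02 over all genes), led by Pdp2, a pyruvate dehydrogenase phosphatase (0.97 ± 0.10), and Pdhb, the E1 beta counterpart of Bckdhb (0.67 ± 0.08). Of 5 regulators none was called at 6000 ppm DEHP, and at 3.5 g/L DCA Hnf4a rose (0.27 ± 0.08) and Ppargc1a fell (-0.87 ± 0.22). The 3 targets of PPAR alpha that served as a check of the exposures, Acot1, Cyp4a14 and Ehhadh, rose in all of these comparisons; Ehhadh rose by 5.602 ± 0.51 in FFPE and 5.77 ± 0.51 in frozen livers at 6000 ppm DEHP and by 5.24 ± 0.36 at 3.5 g/L DCA on the log2 scale, far beyond any change among the 10 genes. At 1 g/L DCA in frozen liver none of these 3 was called, nor was any of the 11 other branched-chain genes.

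Likeness of pattern was described over the 40 frozen libraries as Pearson's r of log2 CPM, each taken relative to the controls of its own study, among 9264 genes; libraries share dose groups, lanes and depth, so r carries no test. The genes most like Bckdha were Mif (0.88), Uqcr11 (0.87), Pink1 (0.87), Grcc10 (0.86) and Atp5d (0.86). Among the members r with Bckdha was highest for Ivd (0.57) and Mccc2 (0.53), and it was 0.13 for its own E1 partner Bckdhb and -0.05 for Dbt. The genes most like Bckdk were Man1b1 (0.65), Slc39a1 (0.64), Hectd3 (0.64), Pfkl (0.61) and Chpf2 (0.59).

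Across the series, total counts were 11673034 to 18866106 in DEHP FFPE, 16582951 to 29550616 in DEHP frozen and 3067666 to 16890024 in DCA frozen libraries. The hepatocyte markers were present in every library set, summing to 30630 to 43060 CPM in DEHP FFPE, 43750 to 73710 CPM in DEHP frozen, 3774 to 24460 CPM in DCA FFPE and 52100 to 106900 CPM in DCA frozen libraries. Adipocyte markers reached at most 0.223 CPM in DEHP and 27.5 CPM in frozen DCA libraries. Among the 16 mice of the DEHP study, the FFPE library correlated best with the frozen library of its own mouse in 12; the exceptions were 40A, 35A, 67C and 8C. Without mice 35A and 67C the FFPE livers had 2 members called at 3000 ppm (Bcat2 and Hibch) and the frozen livers 2 (Mccc2 and Hibch).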

How the data were processed

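Liver RNA of 40 mice was sequenced as 80 libraries (stranded TruSeq kit on 100 ng RNA, ribosomal RNA removed with Ribo-Zero Gold, 4 sections of 10 µm for FFPE tissue, per the labels' protocols). CASAVA, STAR 2.4, RSEM and genome mm10 are named in the submitters' processing notes; the strand setting is not given in the sources used here. The deposited expected counts per gene, not normalized by the authors, were rounded to whole numbers. FPKM values deposited by the authors gave levels between genes, and the RPKM values deposited by the authors were read only to compare the order of those levels. Total counts per library ranged from 109292 to 29550616, and the shallow libraries carry the least precise values.

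Doses were compared with edgeR 4.0.16 (R 4.3.3): filterByExpr with a minimum count of 10, TMM scaling, a quasi-likelihood test over all 4 doses of a study and preparation, and Benjamini-Hochberg adjustment over all genes, with a threshold of 0.05. FFPE and frozen libraries were paired by mouse, from the animal names in the labels. Over 16 DEHP-study mice the paired libraries' deviations from their group means correlated by 0.017 to 0.617 (12 best with their own partner), and over 24 DCA-study mice by -0.020 to 0.141 (10 best). The edgeR fitting code was tested on simulated counts with known changes, for the top-dose, paired DEHP-study and DEHP against DCA comparisons.

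The members and gene lists were chosen with earlier results of these data known. The 10 members are always named; of each other list, up to 2 called genes with the smallest adjusted p in each top-dose comparison of frozen or DEHP-study FFPE liver; and the 5 genes most like Bckdha and the 5 most like Bckdk, passing over predicted-gene, Rik and clone symbols. A gene that this rule names is not reported here. Alternatives were DESeq2 1.42.0, its size factors, no filter, a stricter filter (at least 1 CPM and 10 counts), a second deposited set of expected counts, removal of the Rn45s row, only the 2 groups compared, sequencing run as a term, each library left out, and the pairing left out. Leaving out mice 35A and 67C, and the 3 shallow frozen libraries at 2 g/L, was chosen after seeing the data. Promoters came from RefSeq (GRCm38.p6) and gene bounds from GENCODE (GRCm38); figures were drawn with matplotlib 3.10.9.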

Additional observations from a re-analysis of the deposited data

Results flagged for a closer look

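Of 120 groups of 4 or 6 libraries examined, 7 had 1 library far from the rest by Dixon's criterion, and chance gives about 1 in 20. Bckdha in FFPE liver at 6000 ppm DEHP was lowest in mouse 8C, at 70.4 CPM with the next at 106 CPM. Bckdhb in the same group was lowest in mouse 29B, at 46.3 CPM with the next at 55.1 CPM. Bckdk in FFPE liver at 3000 ppm DEHP was highest in mouse 71A, at 13.9 CPM with the next at 8.78 CPM. Ppm1k in FFPE liver at 1500 ppm DEHP was highest in mouse 72B, at 320 CPM with the next at 161 CPM. Ivd in the same group was highest in mouse 40A, at 101 CPM with the next at 97.0 CPM. Dbt in frozen liver at 1 g/L DCA was lowest in mouse 49, at 107 CPM with the next at 119 CPM. Ppm1k in the frozen DCA controls was highest in mouse 7, at 188 CPM with the next at 151 CPM.

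The top-dose effect of DEHP differed from that of DCA in frozen liver for Ivd, by 0.78 on the log2 scale (edgeR, adjusted p = 8.8e-06), and for Mccc2, by 0.44 (adjusted p = 0.00513).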

How the results depend on the processing

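Across the alternatives, 3496 values for single genes kept their direction and side of the threshold or moved by less than the spread, 156 lost a call, 43 gained one, 160 moved and 2 reversed; of the counts of members called, 331 stayed within 1.5 times and 40 did not. The 2 reversed values are Ivd in FFPE against frozen livers of the DCA study, -0.92 as reported, 0.0622 by DESeq2 and 0.0656 with its size factors, where the median of all genes shifts from -1.54 to -0.63. In that comparison 9 members were called as reported, 4 by DESeq2, 3 with its size factors and 1 within the sequencing run of the controls. At 3000 ppm DEHP in frozen liver 2 members were called as reported, 5 by DESeq2, 4 with the stricter filter and 4 with the second count tables. In FFPE livers of the DEHP study the counts were 5, 6 and 5 at 1500, 3000 and 6000 ppm. At 1500 ppm they became 3 with no filter, 3 with the second count tables and 3 with run as a term. At 3000 ppm they became 2 with only the 2 groups compared, 3 with run as a term and 2 without mice 35A and 67C. At 6000 ppm they became 3 with no filter, 3 with the second count tables, 2 with only the 2 groups and 3 without mice 35A and 67C. At 1 g/L DCA in frozen liver the count of 2 became 1 with no filter and 0 with run as a term. The cause was not tested. Over all genes the run term gave 391, 561 and 667 calls in frozen liver at 1500, 3000 and 6000 ppm against 895, 2022 and 1625 as reported, 513 against 796 in FFPE liver at 1500 ppm, and 510 against 1455 at 1 g/L DCA; the second count tables gave 525 at 1500 ppm in frozen liver. Only the 2 groups compared gave 1029 in frozen liver at 6000 ppm, and in FFPE liver 784 against 1275 at 3000 ppm and 904 against 1680 at 6000 ppm. Without mice 35A and 67C there were 1012 in frozen and 608 in FFPE liver at 3000 ppm, and without the 3 shallow libraries 2377 against 3822 at 2 g/L DCA. Leaving out 1 library gave 2 to 4, 2 to 3 and 2 to 3 members in frozen liver at 1500, 3000 and 6000 ppm, 0 to 0 for 6000 against 1500 ppm, and 1 to 4, 2 to 5 and 2 to 5 in FFPE liver. With DCA it gave 1 to 3, 5 to 5 and 5 to 8 at 1, 2 and 3.5 g/L in frozen liver, 4 to 5 for 3.5 against 1 g/L and 0 to 0 in FFPE liver. It gave 6 to 8 and 8 to 9 for FFPE against frozen in the DEHP and DCA studies, 0 to 0 for the 6000 ppm effect between preparations and 2 to 3 for DEHP against DCA. Without the replicate block that pairs libraries by mouse, 6 members were called in FFPE against frozen livers of the DEHP study (7 with it), 7 of the DCA study (9 with it) and 0 for the 6000 ppm effect between preparations. The FFPE libraries of the DCA study are the shallowest, down to 109292 counts, which limits what can be read from them.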
